A study of Mus musculus with 4 samples.

Results

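The genes described here encode 9 enzymes that make, recycle or remove the building blocks of DNA, measured in splenocytes of 3-week-old DBA/1 mice whose mothers had been exposed to butyl benzyl phthalate (BBP), a plasticiser. They were taken by their symbols, Rrm1, Rrm2, Rrm2b, Tyms, Tk1, Dut, Dctd, Dck and Samhd1, from 30184 gene symbols with a transcript cluster (the probe set of 1 transcribed region) of their own, and each had 1 cluster. The BBP pools held RNA of 6 female and 4 male offspring of dams that drank BBP from 1 week before mating until weaning, and the control pools held RNA of 12 female and 4 male offspring of dams on normal water. Each of the 4 pools was measured on 1 Clariom D array, so that no sex and exposure had a replicate, and with so few arrays each value has limited precision. The labels do not name the litters from which animals were pooled, and litter and exposure cannot be told apart.

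A cell that copies its genome needs all 4 deoxynucleoside triphosphates at the same time, and most of them are made by ribonucleotide reductase, which turns ribonucleotides into deoxyribonucleotides. Thymidylate is made separately, by methylation of deoxyuridylate with a folate carrier, and both nucleoside salvage kinases and a degrading enzyme adjust the pools further. Several of these genes are transcribed mainly in dividing cells, under E2F factors, and the spleen of a young mouse holds dividing erythroid precursors as well as dividing lymphocytes.

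The regions before the starts of Rrm1 and Rrm2 are shown because these genes had the lowest log2 BBP/control ratios of the 9, and because in the RefSeq promoter table (build GRCm38.p6) they were the only members with a match to an E2F site. Each line gives the 250 bases before the start on the + strand, 5′ to 3′, from chr7:102441445-102441694 for Rrm1 and chr12:24708004-24708253 for Rrm2, with matches to an E2F site or to a CCAAT box in capitals:
Rrm1: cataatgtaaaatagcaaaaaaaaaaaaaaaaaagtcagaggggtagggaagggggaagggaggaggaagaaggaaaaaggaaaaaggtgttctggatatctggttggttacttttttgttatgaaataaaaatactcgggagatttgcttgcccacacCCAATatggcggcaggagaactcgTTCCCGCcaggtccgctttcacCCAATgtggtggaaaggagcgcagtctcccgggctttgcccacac
Rrm2: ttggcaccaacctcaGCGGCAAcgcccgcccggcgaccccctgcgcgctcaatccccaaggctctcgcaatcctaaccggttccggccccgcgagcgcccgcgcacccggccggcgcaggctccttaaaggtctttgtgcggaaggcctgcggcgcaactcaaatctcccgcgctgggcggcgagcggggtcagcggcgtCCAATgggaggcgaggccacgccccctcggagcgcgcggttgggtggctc
The form of the E2F site that Rrm1 held was TTCCCGC, and the form that Rrm2 held was TTGCCGC on the other strand. This site was also searched for as TTCGCGC and, in its remaining form, as TTGGCGC. A CHR element, which is a motif found in many genes of the late cell cycle, was searched for as TTTGAA. All searches covered both strands of windows that reached from 250 bases before to 50 after the start. With the start counted as 0, the E2F match of Rrm1 lay on the + strand at -67 to -61, between CCAAT matches at -91 to -87 and -45 to -41. The E2F match of Rrm2 lay on the - strand, so that it reads GCGGCAA above, at -235 to -229, and its CCAAT match lay at -50 to -46. None of these matches overlapped another.

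Of the 8 members in that table (Rrm2b was not among them), 2 held an E2F match in any window, against 9.57% of all 32851 promoters. A CCAAT match was present in 3 of the 8, Rrm1, Rrm2 and Dctd, against 37.4% of all promoters, and a CHR match in Dck alone, against 17.9%. For comparison, 23 of 33 DNA replication genes held an E2F match and 18 of 25 mitosis genes a CHR match. Members and list genes were counted by gene, in any window of theirs, but the shares over all promoters by single window, so the units differ. Of the members only Dctd had several windows. A match describes the letters in the window, and factor binding was not measured.

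In BBP pools the ribonucleotide reductase genes Rrm1 and Rrm2 were lower than in control pools of the same sex by 1.82- to 2.57-fold. Tyms and Tk1, which serve thymidylate supply, were lower by 1.34- to 1.97-fold. Rrm2b, Dut and Samhd1 differed by 1.26-fold or less in both sexes, and Dck differed between the sexes. Of the 8 members with a signal of at least 100 on at least 2 arrays, 1 (Rrm2) passed limma, a linear model over all genes, at an adjusted p under 0.05 and was lower, against 1.29% of the 10615 genes tested. None passed in the other direction, against 1.52% of genes. All 8 had a signal of at least 100 on all 4 arrays. At an unadjusted p under 0.05, 5 members were lower (Rrm1, Rrm2, Tyms, Tk1 and Dut) and 0 higher, against 21.1% and 5.91% of genes. The 8 had a median log2 BBP/control of -0.36 in the female and -0.86 in the male pair, beside -0.10 and -0.15 over all genes tested. Both BBP pools were below both control pools for 5 members, against 39.9% of genes. The log2 ratio was below 0 in both pairs for 6 (5 after median scaling of the arrays), against 51.6% of genes. Below the median of all genes in both pairs were 5, against 3726 of the 10615 genes. No member was above 0 in both pairs, against 19.9% of genes, and 2 (Dck and Samhd1) had opposite signs, against 27.8%.

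**Figure D1:**
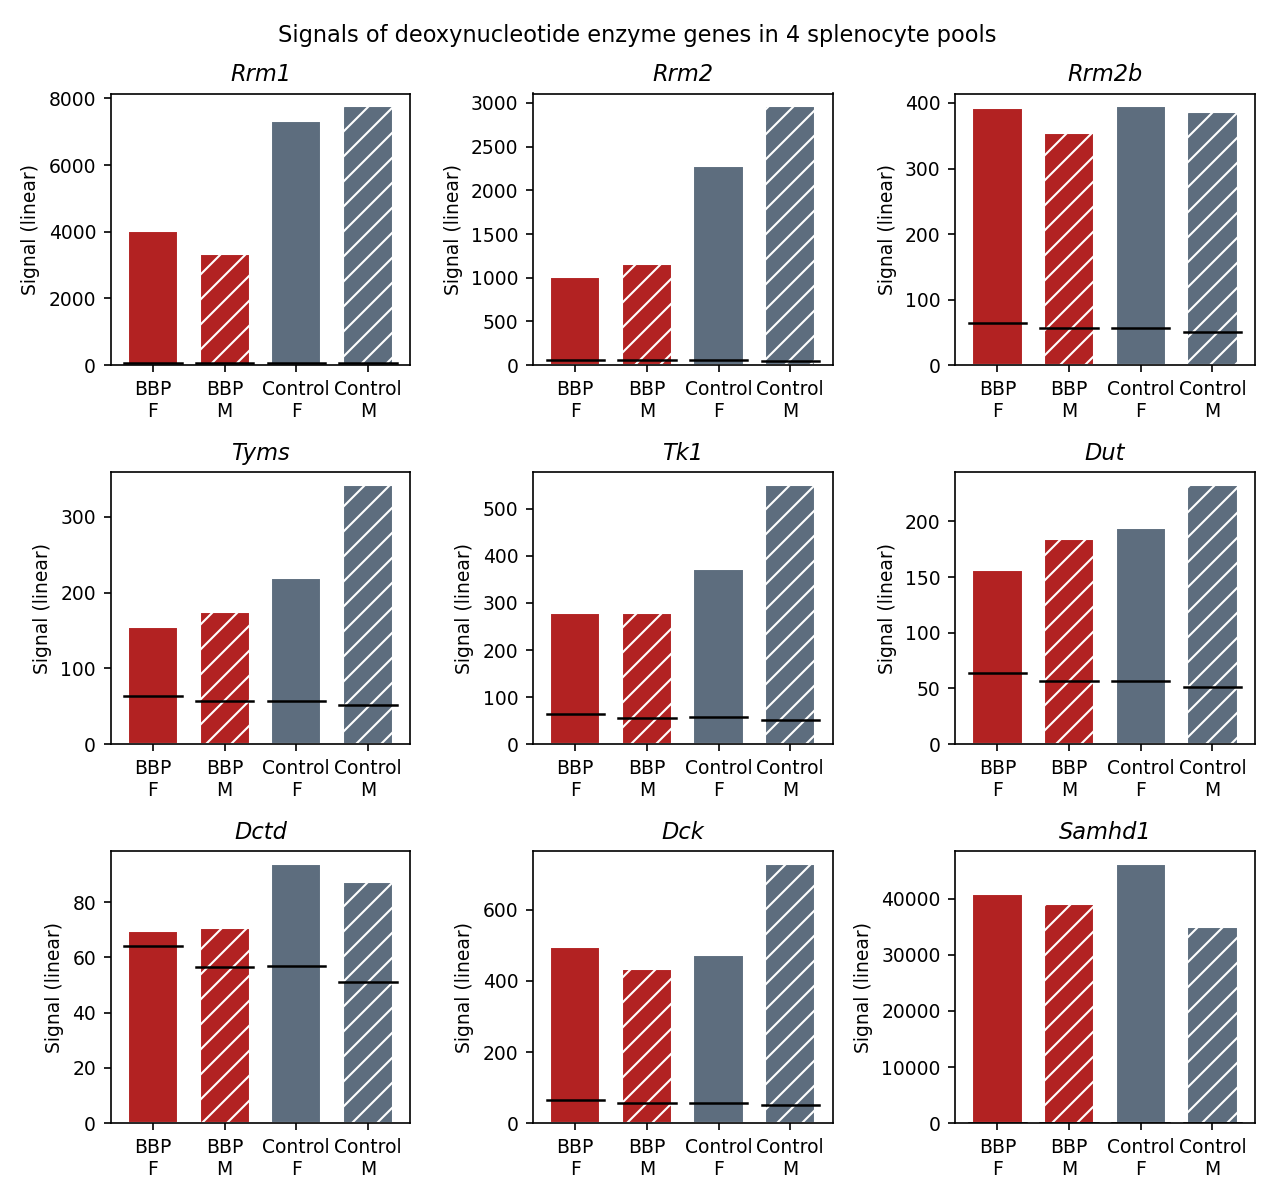
Signal (linear scale, arbitrary units, each panel with its own axis from 0) of the 9 genes in the BBP pools (red) and control pools (grey), F for female and M for male pools (hatched). Each bar is 1 array, and the black line is the median of the negative control features on it. Rrm2 signals were 1013 and 1153 in BBP pools, below both control pools, while the lowest Dctd signal was 1.09 times the black line.

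Rrm1 encodes the large subunit of ribonucleotide reductase, which carries the catalytic and the regulatory sites. Its signal was 4033 in the female and 3347 in the male BBP pool, against 7335 in the female and 7762 in the male control pool. The groups did not overlap, and the male BBP pool was the lowest of the 4. Rrm1 was 1.82-fold lower between the female pools and 2.32-fold lower between the male pools. The fitted log2 BBP/control was -1.04 (SE 0.16, 95% interval -1.47 to -0.61), with a limma adjusted p of 0.0527, just short of the threshold. Rrm1 was among the 2 members at least 1.5-fold lower in both pairs (the other was Rrm2), against 4.45% of genes. Its mean log2 ratio ranked 125 of 10615 genes from the lowest.

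Rrm2 encodes the small subunit that holds the tyrosyl radical and is made when cells enter S phase and degraded after it. Its signal was 1013 in the female and 1153 in the male BBP pool, against 2284 in the female and 2959.7 in the male control pool. Both BBP pools lay below both control pools, and the male pool was the higher one within each exposure. Rrm2 was 2.25-fold lower in the female and 2.57-fold lower in the male pair, the only member at least 2-fold lower in both, against 0.546% of genes. It fell by 1.27 on the log2 scale in the fit (SE 0.14, 95% interval -1.63 to -0.91, limma adjusted p = 0.0378), and 0.273% of genes, itself included, had a mean log2 ratio as low. Rrm2 is on the study's own list of genes, chosen on these arrays for a change of over 2-fold, so its call is not independent evidence of its direction. The call was lost without any 1 of the 4 pools and under 5 other settings, among them quantile normalization (limma adjusted p = 0.0771) and no sex term (limma adjusted p = 0.215), in all of which 0 genes of the whole array passed in either direction, and over all alternatives the adjusted p lay between 0.00477 and 0.577. The fitted log2 ratio of Rrm2 stayed between -1.27 and -1.12 with all pools and between -1.45 and -1.08 without 1 of them.

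Rrm2b encodes the other small subunit, induced by p53 after DNA damage and used by cells that are not in S phase, among other things to supply mitochondrial DNA. Its signal was 392 in the female and 354 in the male BBP pool, against 395 in the female and 387 in the male control pool. The 4 values lay close together, with the male BBP pool lowest. The fitted log2 BBP/control was -0.07 (SE 0.11, 95% interval -0.37 to 0.23, limma adjusted p = 0.739), an interval that leaves room for a modest change either way. Its direction was not stable, since the sign turned after median scaling of the arrays.

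The subunits were also set against each other within each array, which removes any proportional scaling between arrays. Relative to Rrm2b, the log2 BBP/control of Rrm2 was -1.16 in the female and -1.23 in the male pair, and that of Rrm1 was -0.85 and -1.09 in the same order. Rrm1 and Rrm2 thus both had lower ratios than Rrm2b in both sexes.

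Tyms encodes thymidylate synthase, which methylates deoxyuridylate to thymidylate. Its signal was 155 in the female and 174 in the male BBP pool, against 219 in the female and 341 in the male control pool. The groups did not overlap, and the male control pool stood highest. Tyms was 1.41-fold lower in the female and 1.96-fold lower in the male pair. The fitted log2 ratio of -0.74 (SE 0.16, 95% interval -1.15 to -0.32) did not pass the threshold (limma adjusted p = 0.0791). Its lowest signal was 2.42 times the negative control median of its array, and with a pseudocount of 50 the fitted ratio was -0.60.

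Tk1 encodes the cytosolic thymidine kinase, which salvages thymidine in dividing cells. Its signal was 278 in the female and 279.6 in the male BBP pool, against 371 in the female and 549.7 in the male control pool. The BBP pools were nearly equal and both below the controls, of which the male was again higher. Tk1 was 1.34-fold lower between the female pools and 1.97-fold lower between the male pools. The fitted log2 ratio was -0.70 (SE 0.17, 95% interval -1.14 to -0.25, limma adjusted p = 0.0916). When only the 7607 protein-coding genes were fitted, a choice made after seeing the data, Rrm1, Tyms and Tk1 passed as well (limma adjusted p = 0.00829, 0.0244 and 0.0295), and so did 10.3% of these genes as lower, while over all alternatives their adjusted p reached 0.577, 0.586 and 0.582.

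Dut encodes dUTPase, which removes dUTP before it can enter DNA and yields the substrate of thymidylate synthase. Its signal was 156 in the female and 184 in the male BBP pool, against 194 in the female and 232 in the male control pool. The groups stayed apart by a small margin, with a 1.24-fold lower signal under BBP for female and a 1.26-fold lower one for male pools. The fitted log2 ratio was -0.32 (SE 0.12, 95% interval -0.64 to -0.01) and did not pass the threshold (limma adjusted p = 0.176). The lowest Dut signal was 2.44 times the negative control median of its array, and with a pseudocount of 50 the fitted ratio was -0.26.

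Dctd encodes dCMP deaminase, which supplies deoxyuridylate from deoxycytidylate. Its signal was 69.7 in the female and 70.5 in the male BBP pool, against 93.6 in the female and 87.4 in the male control pool. Both BBP pools were lower, by 0.42 and 0.31 on the log2 scale, but the lowest value was only 1.09 times the median of the negative control features on its array. Dctd had no signal of 100 and was therefore not tested.

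Dck encodes deoxycytidine kinase, the main salvage kinase of lymphoid cells for deoxycytidine and for purine deoxynucleosides. Its signal was 496 in the female and 433 in the male BBP pool, against 474 in the female and 728 in the male control pool. The groups overlapped, and the male control pool stood above the other 3. Dck was 1.05-fold higher in the female and 1.68-fold lower in the male pair, and the fitted log2 ratio was -0.34 (SE 0.22, 95% interval -0.91 to 0.23, limma adjusted p = 0.369).

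Samhd1 encodes the triphosphohydrolase that cleaves deoxynucleoside triphosphates and keeps their level low, above all in myeloid cells and resting lymphocytes. Its signal was 40860.2 in the female and 39032.5 in the male BBP pool, against 46096.5 in the female and 34900.0 in the male control pool. Both BBP values lay between the control values, so the pairs pointed opposite ways, with log2 ratios of -0.17 in females and 0.16 in males. The fitted log2 ratio was -0.01 (SE 0.16, 95% interval -0.43 to 0.42, limma adjusted p = 0.986), and its sign turned under median scaling and quantile normalization.

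**Figure D2:**
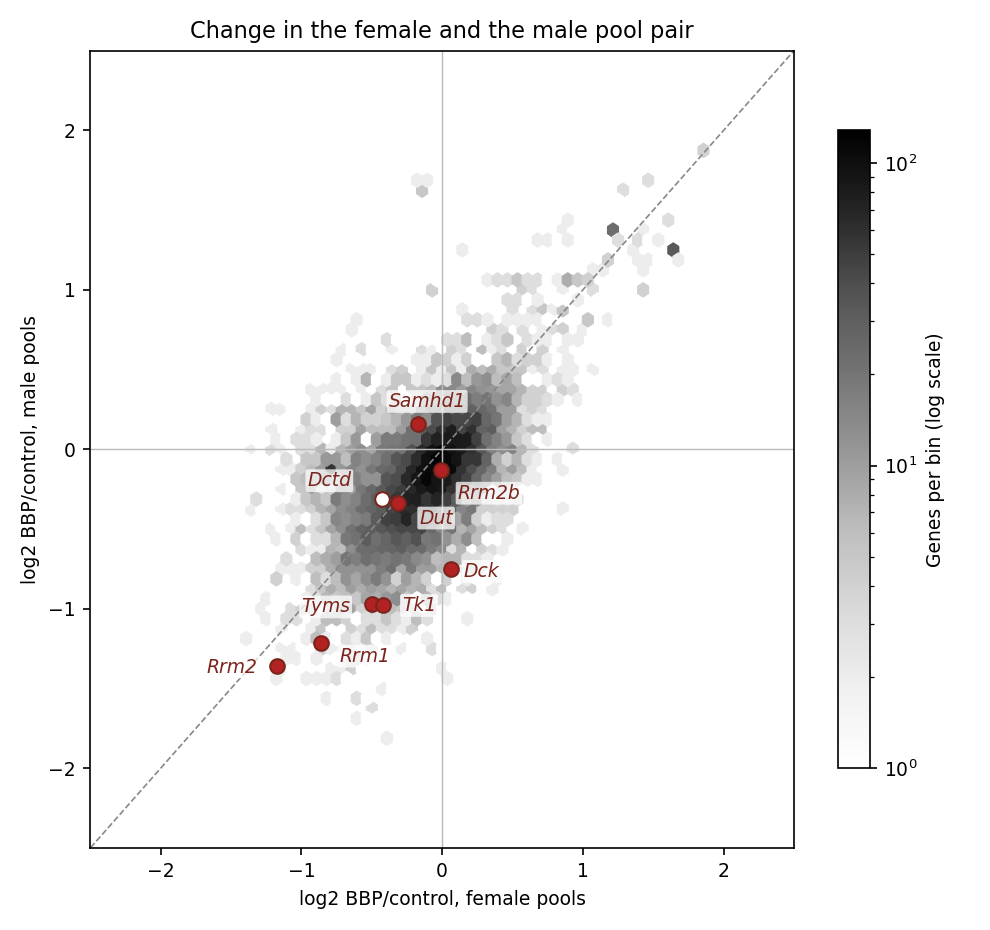
log2 BBP/control in the female pools (x axis) and male pools (y axis) for the 10615 genes tested, as bins shaded by the number of genes on a log scale, with the members in red (open symbol for Dctd, which was not tested) and the dashed line where both sexes are equal. Rrm2 and Rrm1 lay at the lower left, Tyms, Tk1 and Dck below the dashed line, and Rrm2b and Samhd1 near the origin.

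The members were next compared between the sexes. The log2 ratio was lower in the male than in the female pair for 7 of the 8 members tested, against 59.6% of genes, and by over 0.3 for 4 of them (Rrm1, Tyms, Tk1 and Dck), against 21.6%. With 1 pool per sex and exposure this difference could not be tested for any of them. The gap was widest for Dck, and 2.49% of genes had a gap in that direction at least as wide.

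Within exposures, Tyms had a log2 male/female ratio of 0.17 in BBP pools and 0.64 in control pools, and for Tk1 the ratio was 0.01 in BBP pools and 0.57 in control pools. Dck had -0.20 in BBP pools and 0.62 in control pools. For these 3 genes, and also for Rrm1, Rrm2 and Dut, the male control pool was the highest of the 4. The share of all genes that were highest there was not counted. That array also had the highest median signal of all genes tested, 533.5 against 473.1 to 519.0 on the others, so a scaling difference between arrays was not separated from this trait. Rrm1 had a lower male than female pool under BBP, with a ratio of -0.27 in BBP pools and 0.08 in control pools. Rrm2 was higher in males in both, by 0.19 in BBP and 0.37 in control pools. Fits without 1 pool, which have no sex term, moved Tyms, Tk1, Dck and Dut by over 1.5 times between the lowest and highest value. Without the male control pool the fitted log2 BBP/control was -0.42 for Tyms, -0.41 for Tk1, -0.03 for Dck and -0.19 for Dut, and without the female control pool it was -1.05 for Tyms, -0.98 for Tk1, -0.65 for Dck and -0.45 for Dut. Rrm1 had -0.997 without the male and -1.08 without the female control pool, and Rrm2 had -1.08 and -1.45 in the same order.

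**Figure D3:**
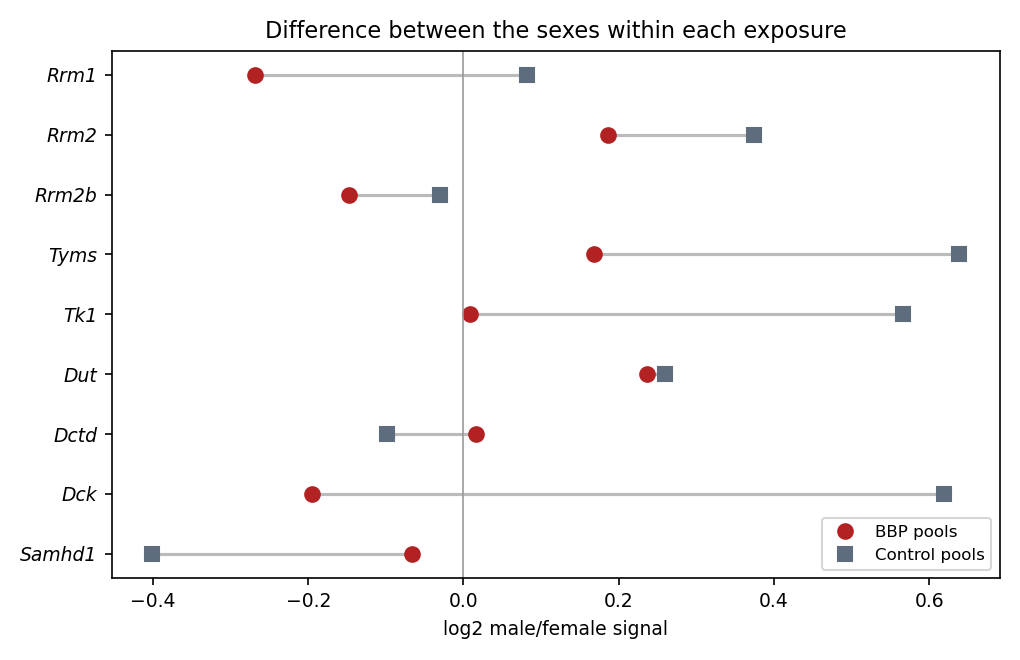
log2 male/female signal of the 9 genes in BBP pools (red circles) and control pools (grey squares), each from 1 array per sex. The control value lay to the right of the BBP value for 7 genes and to the left for Dctd and Samhd1. For Tyms, Tk1 and Dck the control value was 0.64, 0.57 and 0.62.

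Erythroid marker genes also had a lower log2 BBP/control in the male than in the female pair, by a gap that varied. Klf1 had nearly equal ratios, -1.463 in females and -1.525 in males. Alas2, Epb42 and Slc4a1 were above 0 in females (0.78, 0.17 and 0.18) and below 0 in males (-0.57, -1.24 and -1.13). Of the 12 markers with a cluster of their own, of 18 listed, 9 were lower in both pairs, against 51.6% of all genes tested. As lower, 2 passed limma (Klf1 and Cldn13, both on the study's own list), against 1.29% of genes. Klf1 and Gata1 had a signal of at least 100 only in control pools, which brought them into the test, and of the other 10 markers 7 were lower in both pairs. The median over these markers was -0.35 in the female and -1.25 in the male pair on the log2 scale, and their summed signal was 60840.7 in the female and 58961.7 in the male BBP pool, against 52054.0 in the female and 109902.7 in the male control pool. Without Alas2, the most abundant marker, the sum was 31399.0 in the female and 22971.9 in the male BBP pool, against 34957.8 in the female and 56449.0 in the male control pool. The male control pool was the highest for both sums, as for Rrm1, Rrm2, Tyms, Tk1, Dut and Dck. It was also the highest for the summed signals of the DNA replication list, the mitosis list and all genes tested. For mitosis the margin was small, 83618.1 against 81683.4 in the female control pool. Dividing erythroid precursors would also carry transcripts of these 2 lists, so the lists cannot tell whether the trait was erythroid. Sums of the natural killer, plasma cell and megakaryocyte markers were highest in the male control pool too. The B cell sum was highest in the female control pool by a small margin (238738.7, against 236502.2 in the male control pool). Monocyte and macrophage sums and eosinophil sums were also highest in the female control pool. Those of T cell, neutrophil, dendritic cell and stromal markers were highest in a BBP pool. Klf1 was at 63.1 in the female BBP pool, under the negative control median of 64.1 on that array, and no other marker of the 12 was at or below that median on any array. The part of these cells in the members' values was not tested, and in bulk samples fewer cells of a type and less RNA per cell cannot be told apart.

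B cell markers, as the labelled spleen would hold, numbered 7, none at or below the negative controls. Of these, 0 passed limma and 6 were lower in both pairs, against 51.6% of genes. Below the median log2 ratio of all genes in both pairs were 4 of them, against 3726 of the 10615 genes. T cell markers (9 tested) held 5 that were higher in both pairs, against 19.9% of genes, and 0 that passed. All 5 stromal markers were at or below the negative controls. The median signal of all genes tested was 479 and 473 in the female and male BBP pools and 519 and 533 in the female and male control pools, and the negative control features had medians of 51.1 to 64.1.

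The other genes of nucleotide metabolism were examined as 7 lists of 60 genes, of which 53 had a cluster of their own and 43 were tested. Of the 43, 34 had a log2 BBP/control below 0 in both pairs, against 51.6% of all genes tested. Above 0 in both were 3, against 19.9%. As lower, 2 passed limma (Mthfd1 and Nme1), against 1.29% of genes, and 0 passed as higher, against 1.52%. The same shares over all genes stand beside the counts of each nucleotide list below. The 43 had a median log2 ratio of -0.39 in the female and -0.45 in the male pair, beside -0.10 and -0.15 over all genes.

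The folate and thymidylate list had 5 of its 9 genes tested, all below 0 in both pairs, and Mthfd1, a trifunctional enzyme that prepares folate carriers, passed. Mthfd1 had 681 and 782 in the female and male BBP pools, against 1583 and 1491 in the female and male control pools, and fell by 1.07 on the log2 scale (SE 0.14, limma adjusted p = 0.0401). Dtymk, which phosphorylates thymidylate, had log2 ratios of -0.39 in females and -0.85 in males and did not pass (limma adjusted p = 0.0992).

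De novo synthesis of pyrimidines (5 tested of 6) and of purines (10 tested of 12) had no gene past the threshold, although 4 and 9 of them were below 0 in both pairs. Cad, which carries out the opening steps of pyrimidine synthesis, had log2 ratios of -0.63 and -0.53 in females and males (limma adjusted p = 0.0764), and Ctps, which makes CTP, had -0.57 and -0.35 (limma adjusted p = 0.109). Of the purine enzymes, Adsl had -0.66 and -0.70 (limma adjusted p = 0.0566) and Ppat, which catalyses the committed step, had -0.60 and -0.72 (limma adjusted p = 0.0624).

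Among nucleotide kinases and salvage enzymes (8 tested of 11), 7 were below 0 in both pairs and Nme1, a nucleoside diphosphate kinase, passed. Its signals were 91.3 and 98.9 in the female and male BBP pools, against 196 and 211 in the female and male control pools, and it fell by 1.10 on the log2 scale (SE 0.13, limma adjusted p = 0.0378). Both BBP signals were under 100, so Nme1 entered the test only through the control pools, where it was high. Like Rrm2, Nme1 is on the study's own list, so its call is not independent. Hprt, the purine salvage enzyme, had log2 ratios of -0.65 in females and -1.13 in males (limma adjusted p = 0.0718).

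Of the mitochondrial supply genes, which serve the synthesis of mitochondrial DNA, 4 of 5 were tested, 0 passed and 1 was below 0 in both pairs, with median log2 ratios of 0.12 in females and -0.22 in males. Dguok, the mitochondrial deoxyguanosine kinase, had -0.07 in females and -0.29 in males (limma adjusted p = 0.412), and Nt5m, a mitochondrial deoxynucleotidase, had 0.03 and -0.24 in the same order (limma adjusted p = 0.687).

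Enzymes of breakdown and sanitation, to which Samhd1 and Dut are closest in role, had 7 of 13 genes tested, of which 0 passed and 5 were below 0 in both pairs. Pnp, which cleaves purine nucleosides, had log2 ratios of -0.82 in females and -0.87 in males (limma adjusted p = 0.0518), and Itpa, which removes inosine triphosphate, had -0.42 and -0.60 (limma adjusted p = 0.0876). The electron donors that keep ribonucleotide reductase active had 4 of 4 tested and 0 past the threshold. Of these, Txn1 (thioredoxin) had -0.55 in females and -0.84 in males (limma adjusted p = 0.0802) and Txnrd1, its reductase, had -0.21 and -0.19 (limma adjusted p = 0.315).

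**Figure D4:**
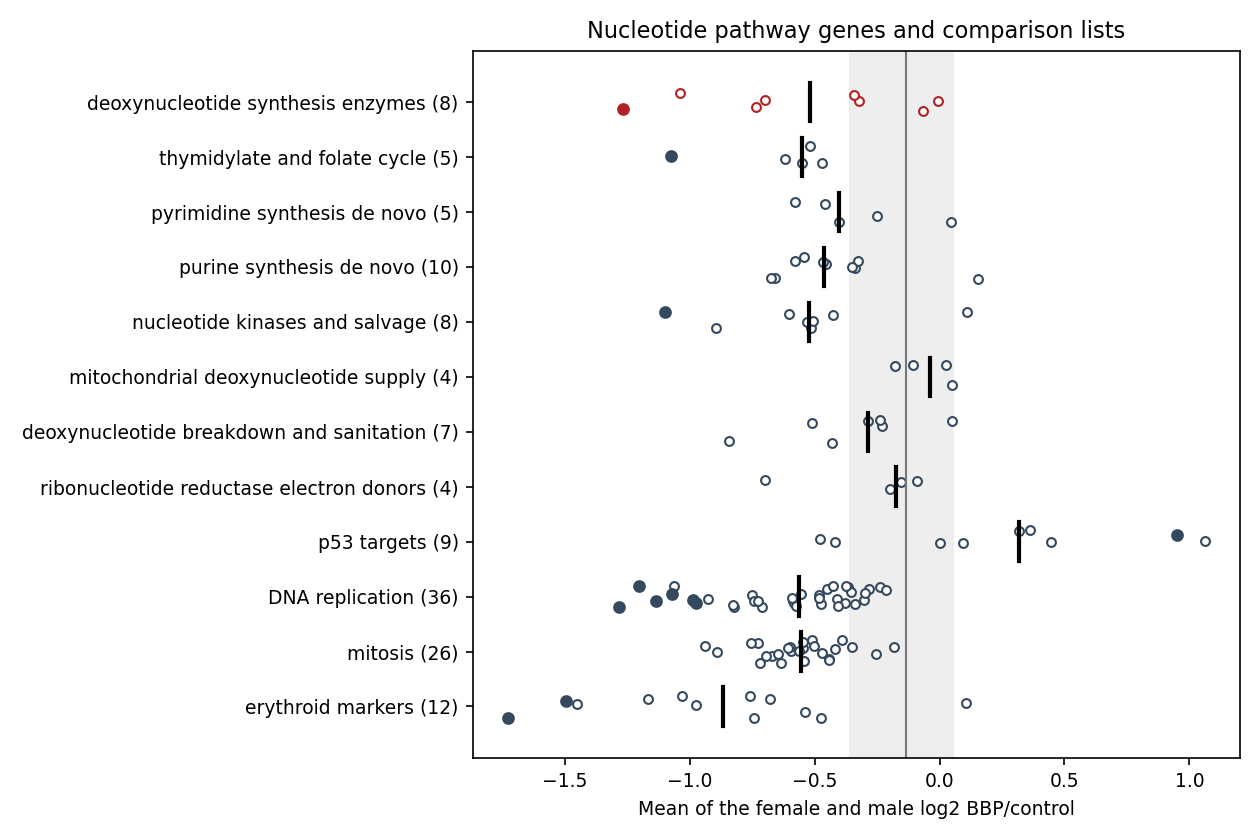
Mean of the female and male log2 BBP/control for each gene tested (circles, filled where limma adjusted p was under 0.05), by list, with the number tested in brackets and the median of each list as a black bar. The grey line and band are the median and interquartile range of all 10615 genes. The members (red, top) spread between -1.27 and -0.01, the DNA replication genes between -1.28 and -0.21.

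Since Rrm2b is a p53 target, other genes that p53 induces were counted beside it. Of 17 listed, 9 were tested. Of these, 6 were above 0 in both pairs and 2 below 0 in both, against 19.9% and 51.6% of genes. As higher, 1 passed (Fas, a death receptor, limma adjusted p = 0.0423), against 1.52% of genes. The highest was Plk2, a kinase, with log2 ratios of 0.80 in females and 1.33 in males (limma adjusted p = 0.0540). Cdkn1a, the cell cycle inhibitor p21, had -0.40 and -0.44 with a signal under 100 in both BBP pools (limma adjusted p = 0.148), and Mdm2, the ligase that restrains p53, had 0.18 and 0.01 (limma adjusted p = 0.685). The list thus held values on both sides of Rrm2b.

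Genes of DNA replication, which use what the members make, were set beside them as a yardstick. Of 36 tested of 40, 35 were below 0 in both pairs, against 51.6% of genes. As lower, 6 passed limma (Mcm2, Mcm3, Mcm5, Mcm6, Cdc6 and Prim1), against 1.29% of genes. The 36 had median log2 ratios of -0.49 in females and -0.61 in males. Mcm2, Mcm5, Mcm6 and Cdc6 are on the study's own list, so their calls are not independent evidence. Of the 31 with a signal of at least 100 on all arrays, 31 were below 0 in both pairs, against 52.4% of such genes. Cdc6, which loads the replicative helicase, was lowest with -1.26 in females and -1.31 in males (limma adjusted p = 0.0310). Only Cdc6 had a lower mean log2 ratio than Rrm2, and 5 genes (Mcm2, Mcm5, Mcm6, Cdc6 and Rfc4) had a lower one than Rrm1. Tyms had 12 replication genes with a lower mean than its own and Tk1 had 14. Dck and Dut had 30 and 31, and all 36 had a lower mean than Rrm2b and than Samhd1. Of 26 mitosis genes tested, 26 were below 0 in both pairs, against 51.6% of genes, and 0 passed. Ccnb2, a mitotic cyclin, was lowest at -0.61 in females and -1.27 in males (limma adjusted p = 0.0766).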

How the data were processed

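Splenocyte RNA, pooled by sex and exposure, was hybridised to 4 Clariom D mouse arrays. The authors used MAS 5.0 (named MAS5 by the submitters' processing notes) to extract the signals, which they then scaled between arrays. The deposited values are intensities on a linear scale. Scaling target, detection calls and genome build: not given in the sources used here.

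Of 65956 transcript clusters, 30646 had 1 gene symbol, 2168 had several and 33142 had none, and those with 1 symbol were used. Symbols came from the platform's probe annotation, and 29857 of 30184 were found in the RefSeq table of assembly GRCm38.p6, which gave chromosomes and gene types. Where a symbol had several clusters, that of highest mean over the 4 arrays stood for it. Genes with a signal of at least 100 on at least 2 arrays (10615) were fitted on log2 signals, with no pseudocount, by limma 3.58.1 (R 4.3.3) with exposure and sex as terms and a variance trend. This left 1 residual degree of freedom. It is the disagreement between the female and the male log2 BBP/control of a gene. To it limma joined a prior of 3.74 degrees of freedom drawn from the variances of all genes. P values were adjusted by Benjamini and Hochberg over all genes tested, at a threshold of 0.05. They do not measure the spread between animals, nor between pools of the same sex and exposure. The fit was also run on simulated arrays, with independent errors drawn from its own fitted variances. These arrays held no sex difference and no scaling difference, so the run cannot show how the fit handles either. Counts, motif matches and figures used Python 3.11.15, numpy 2.4.6, pandas 2.3.3 and matplotlib 3.10.9.

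The members and lists were chosen with earlier results of these data known. All members were named, as were pathway genes past the threshold, the 2 with the largest mean log2 ratio in each pathway list, 1 in each comparison list, and Cdkn1a and Mdm2. Genes of the replication, p53 and erythroid lists that passed, Gata1, Alas2, Epb42 and Slc4a1, and replication genes placed against Rrm1 were named in addition, after their values were seen. Alternatives were quantile normalization, median scaling, a pseudocount of 50, no filter or a minimum of 200, every cluster, no trend, robust variances, no sex term, and leave-one-out fits of 3 pools, which also had no sex term. Counting identical signals once and protein-coding genes alone were added after the data were seen. Genes without a cluster of their own symbol were not analysed here.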

Additional observations from a re-analysis of the deposited data

Results flagged for a closer look

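The log2 BBP/control of Dck was 0.065 in the female and -0.75 in the male pair, and that of Samhd1 was -0.17 in the female and 0.16 in the male pair. Both genes moved opposite ways in the sexes, as did 27.8% of the 10615 genes tested. With 1 pool per sex and exposure, neither difference between the sexes was tested.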

How the results depend on the processing

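Of the 8 members tested, 1 passed limma at an adjusted p under 0.05. The count was 0 after quantile normalization, without a signal filter, with a minimum of 200, without the sex term, with identical signals counted once and without any 1 of the 4 pools, settings under which 0 of all genes passed, and it was 4 (Rrm1, Rrm2, Tyms and Tk1) with protein-coding genes only. Counting identical signals once and protein-coding genes only were chosen after seeing the data. At an unadjusted p under 0.05 the members passing numbered 5 after quantile normalization, without the filter and with identical signals counted once, 4 with a minimum of 200 and without the sex term, and 2 to 5 without 1 pool. The count at the adjusted threshold stayed at 1 under median scaling, the pseudocount of 50, every cluster, no trend and robust variances. Among these settings the unadjusted count was 4 under median scaling and no trend, and 5 under the others. The count of members lower in both pairs, 6 in the fit reported, was 5 under median scaling, where Rrm2b rose above 0. Over all genes, median scaling gave 24 lower and 153 higher calls, beside 137 and 161 in the fit reported, and protein-coding genes only gave 783 and 153. Rrm1, Rrm2, Tyms, Tk1, Dut and Dck had a negative fitted log2 ratio under every alternative run, between -1.45 and -1.08 for Rrm2, -1.17 and -0.90 for Rrm1, -1.05 and -0.42 for Tyms, -0.98 and -0.41 for Tk1, -0.45 and -0.19 for Dut and -0.65 and -0.03 for Dck without 1 pool. The sign turned for Rrm2b under median scaling (0.076) and lay between -0.142 and 0.006 without 1 pool. It turned for Samhd1 after quantile normalization (0.13) and median scaling (0.14), and lay between -0.21 and 0.19 without 1 pool. The cause was not tested. The sex term pairs the pools by sex in the fit reported. The deposited signals carry no error of their own, and Dctd, near the negative controls, was not tested.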
